A study of Homo sapiens with 15 samples.

Results

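Interferon-stimulated genes are the genes that cells switch on when they sense interferon, and 40 of them were followed here among the 33367 genes measured in Reh cells, an established human line from a B-cell precursor leukaemia. The 40 were given as a named list, which was chosen with earlier results of these data known. All 40 were found in the tables, with DDX58 under that older symbol for RIG-I. Interferons bind receptors on the cell surface, and Janus kinases attached to those receptors phosphorylate STAT proteins. A complex that contains STAT2 and IRF9 then binds the interferon-stimulated response element (ISRE) in the promoters of antiviral genes, while STAT dimers bind the GAS element. IRF and ETS-family factors recognise related letters, since an ISRE contains GAAA and an ETS site contains GGAA.

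Reh carries the ETV6::RUNX1 fusion gene and lacks a normal copy of ETV6, a repressor of the ETS family. The 15 libraries came from 2 experiments, each with 3 libraries per group. In the first, transduced cell populations, not single clones, carried 1 of 3 vectors switched on by doxycycline. The vectors encoded wild-type ETV6 (ETV6_WT), ETV6 bearing R399C, a substitution in the DNA-binding domain (ETV6_R399C), or the blue fluorescent protein tagBFP, each with a V5 tag. All 9 of these libraries were made after 48 h of 500 ng/ml doxycycline. In the second, populations with inducible dCas9-KRAB, an inactive Cas9 joined to a repressor domain, carried a guide against the promoter of ERG, another ETS factor (sgERG), or a non-targeting guide (sgCtrl). These 6 libraries came from cells sorted for the reporter of the guide vector, after 72 h at the same dose. No group in either experiment was left without doxycycline, and the labels name no interferon treatment.

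Library totals ran from 22040338 to 52481351 estimated reads, and every library of the dCas9-KRAB experiment was deeper than 8 of the 9 libraries of the ETV6 experiment. The labels do not say that the 3 libraries of a group were separate cultures, so p-values measure only the spread between these libraries. Counts are given as CPM, scaled by TMM to the library's reads of named genes, as mean ± SD (n = 3) or by library, and each log2 change is given ± SE. In tagBFP libraries ETV6 read 5.86 ± 0.327 CPM, where the ETV6_R399C libraries held 373.3 ± 14.7 and those of ETV6_WT 485.9 ± 18.1. ETV6_WT libraries held more ETV6 RNA than ETV6_R399C libraries, by log2 0.38 ± 0.04 (adjusted p = 2.5e-05). In the other experiment ERG read 524.7 ± 6.35 CPM under the control guide and fell to 105.1 ± 4.14 under sgERG (log2 -2.32 ± 0.04, adjusted p = 9.2e-10). Reads counted as ETV6 fell there too, from 13.16 ± 1.26 to 6.556 ± 0.513 CPM (2.005-fold, adjusted p = 7.0e-05). The gene sums do not tell reads of the ETV6::RUNX1 fusion from other ETV6 reads. ERG was higher with ETV6_WT than with tagBFP (log2 0.12 ± 0.03, adjusted p = 0.0032). Of 9 B-lineage markers, VPREB1 had 0 reads in all libraries and the other 8 passed the filter on low counts. Their summed level was 2771 to 2850 TPM (a level per transcript length) with tagBFP, 3866 to 3893 with ETV6_WT, 3800 to 3834 with ETV6_R399C and 2957 to 3054 in the dCas9-KRAB libraries. T-cell markers summed to at most 1.26 TPM and erythroid markers to at most 0.439 TPM in any library.

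The promoters of the 4 members with the largest called changes in any comparison, among those with a RefSeq entry, are shown first, because the factors named above read their letters. RSAD2 is added, chosen after its matches were seen. Each line gives the 200 bases before the transcription start on the gene's own strand, from RefSeq on GRCh38.p14, at chr1:78620248-78620447 (plus strand) for IFI44L, chr11:313840-314039 (plus) for IFITM1, chr20:36951709-36951908 (minus) for SAMHD1, chr10:89392423-89392622 (plus) for IFIT1 and chr2:6865685-6865884 (plus) for RSAD2. The gene starts of the annotation used for the counts can differ from these. Capitals mark exact matches, on either strand, of the ISRE core or the ETS-IRF composite. The core is GAAA, any 2 bases, then GAAA, and the composite is GGAA, any 2 bases, then GAAA. They can overlap.
IFI44L: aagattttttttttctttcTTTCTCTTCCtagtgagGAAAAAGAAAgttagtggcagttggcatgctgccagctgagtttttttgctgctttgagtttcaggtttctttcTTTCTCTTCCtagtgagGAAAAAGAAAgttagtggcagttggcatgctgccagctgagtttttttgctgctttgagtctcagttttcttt
IFITM1: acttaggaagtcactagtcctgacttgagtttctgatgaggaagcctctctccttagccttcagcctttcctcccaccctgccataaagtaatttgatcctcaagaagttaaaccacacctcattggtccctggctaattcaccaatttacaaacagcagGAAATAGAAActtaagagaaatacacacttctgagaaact
SAMHD1: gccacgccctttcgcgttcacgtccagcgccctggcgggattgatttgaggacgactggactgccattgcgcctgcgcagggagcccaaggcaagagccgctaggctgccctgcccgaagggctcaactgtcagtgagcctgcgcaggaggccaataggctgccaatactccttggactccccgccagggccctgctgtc
IFIT1: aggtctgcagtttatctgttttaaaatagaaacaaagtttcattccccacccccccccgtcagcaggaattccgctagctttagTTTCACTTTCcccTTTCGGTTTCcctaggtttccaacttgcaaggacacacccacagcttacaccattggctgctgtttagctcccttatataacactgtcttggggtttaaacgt
RSAD2: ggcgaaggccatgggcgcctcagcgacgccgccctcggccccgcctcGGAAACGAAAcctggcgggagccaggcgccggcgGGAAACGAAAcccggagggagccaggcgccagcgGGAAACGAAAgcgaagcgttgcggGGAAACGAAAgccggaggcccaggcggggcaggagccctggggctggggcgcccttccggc

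The matches differed in kind and place between these promoters. In IFIT1 a pair of ISRE cores lay on the minus strand, the outer one 116 bases before the start. RSAD2 held 4 ETS-IRF composites, 153, 119, 85 and 61 bases before the start, and no ISRE core in this window. IFI44L held a repeated block with the composite at 181 and 90 bases and the ISRE core at 164 and 73 bases before the start. IFITM1 had 1 ISRE core 40 bases before the start and a second that ran across the start site. SAMHD1 held neither motif.

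Windows of 300 bases, from 250 before to 50 after the start, were found for 32 of the 40 members, 41 windows in all because some genes have several starts. The ISRE core was present in 26 of the 41 windows (63.4%), against 3.6% of all 35116 windows of that length. GAS, TTCNNNGAA, was present in 29.3% against 7.7%, and the ETS-IRF composite in 26.8% against 2.8%. The plain ETS site CCGGAAGT was in none of the 41 windows, against 4.1% of all windows. GGAAGGAA, a short GGAA repeat, was in 7.3% against 3.7%. A match is only a run of letters, and binding was not measured.

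Transcript levels per length spanned a wide range in the control libraries, as the plot of levels by gene shows. In tagBFP libraries the highest member was IFITM2, which blocks virus entry in endosomes, at 284 ± 10.9 TPM, followed by the tethering protein BST2 at 175 ± 6.15 and the transcription factor IRF1 at 128 ± 6.19. IFITM2 and BST2 differed by more than the spread of their libraries, and so did BST2 and IRF1. At the other end, IFI27 stood at 0.104 TPM, OASL at 0.1096 and IFI44L at 0.382, and these 3 had 0 to 34 reads in a tagBFP library. With tagBFP, 28 members had a mean of at least 10 TPM and 3 a mean under 1 TPM, and the median member stood at 18.7 TPM. Summed over the 40 members, the level was 1322, 1367 and 1299 TPM with tagBFP, 1438, 1488 and 1451 with ETV6_WT, and 1418, 1428 and 1429 with ETV6_R399C. Both ETV6 groups lay above all tagBFP libraries in this sum.

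**Figure D1:**
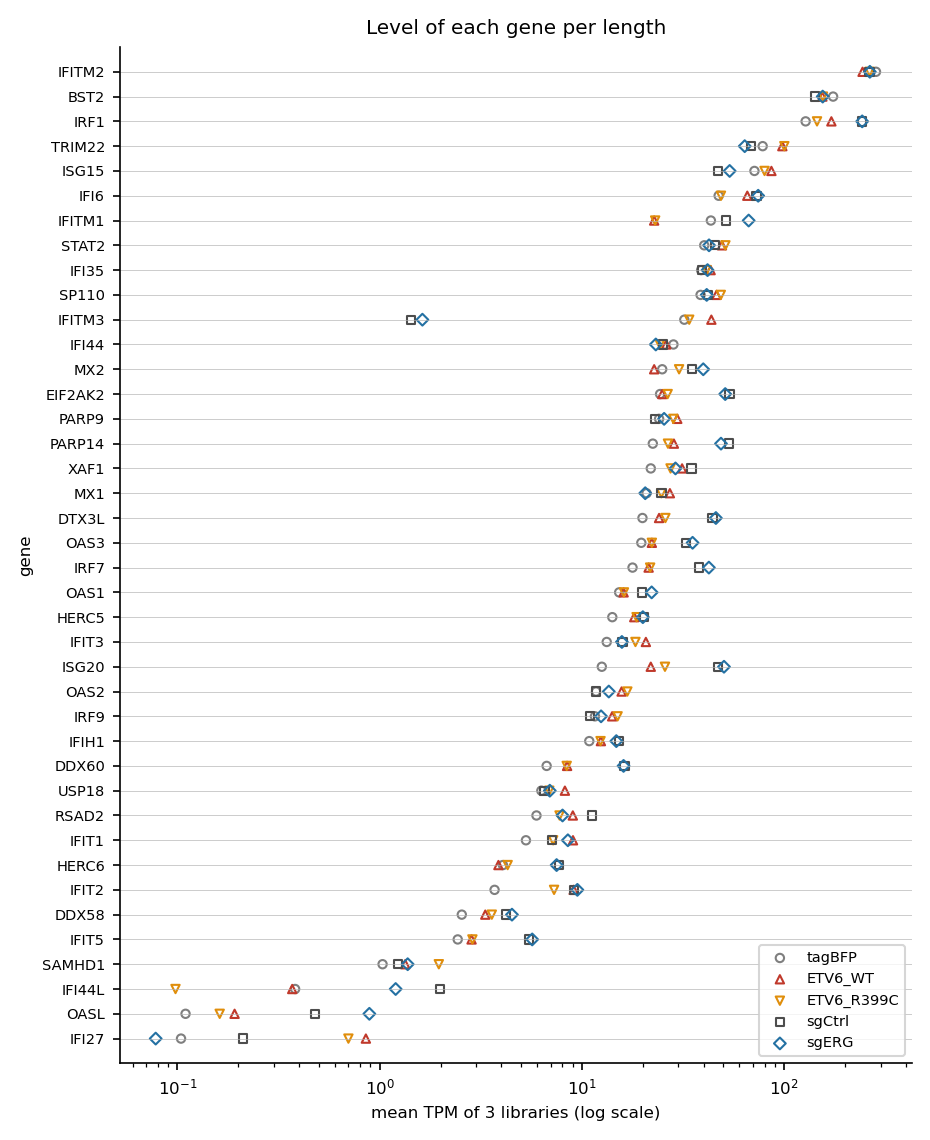
Mean TPM over 3 libraries (log axis) of each of the 40 interferon-stimulated genes, 1 symbol per group, ordered by the level with tagBFP. IFITM2 is highest at 284 TPM with tagBFP, and IFITM3 is at 32.1 TPM with tagBFP but 1.43 TPM with sgCtrl.

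The control groups of the experiments differed from each other in many members. Between tagBFP and sgCtrl, 12 members had mean TPM values more than 2-fold apart and 20 were within 1.5-fold. IFITM3 was the widest, at 32.1 TPM with tagBFP and 1.43 with sgCtrl. The other 11 were all higher with sgCtrl, among them ISG20 (12.5 and 47.0 TPM), IFIT2 (3.70 and 9.16) and IFI44L (0.382 and 1.98). The experiments differ in vector, sorting, induction time and depth, which cannot be told apart, so each effect below is taken within its own experiment.

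With wild-type ETV6 most of these genes differed from tagBFP, mostly upward and by small amounts. Of the 38 members that passed the filter on low counts, 27 were higher and 4 lower with ETV6_WT than with tagBFP (edgeR's quasi-likelihood test, Benjamini-Hochberg adjusted over all genes tested, threshold 0.05). That is 81.6% of the members, where 36.5% of all 14242 genes tested were called, 17.6% as higher and 18.9% as lower. The median log2 change was 0.25 for the members and 0.00 for all genes, with a range from -0.98 for IFITM1 to 1.28 for IFIT2. IFIT2 alone passed 2-fold. All 3 libraries lay on 1 side of all 3 tagBFP libraries for 29 members higher and 5 lower, where 48.2% of all genes did so, 23.2% higher and 25% lower. With ETV6_R399C, which shares the tagBFP libraries with that comparison, 20 members were higher and 5 lower, or 65.8%, where 40.9% of all genes were called, 18.8% higher and 22.1% lower. The median there was 0.17, against 0.00 for all genes. Here 22 members higher and 5 lower did not overlap tagBFP, where 50.8% of all genes did not, 24.1% higher and 26.7% lower. OASL and IFI27 did not pass the filter in this experiment, and IFI27 in neither.

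**Figure D2:**
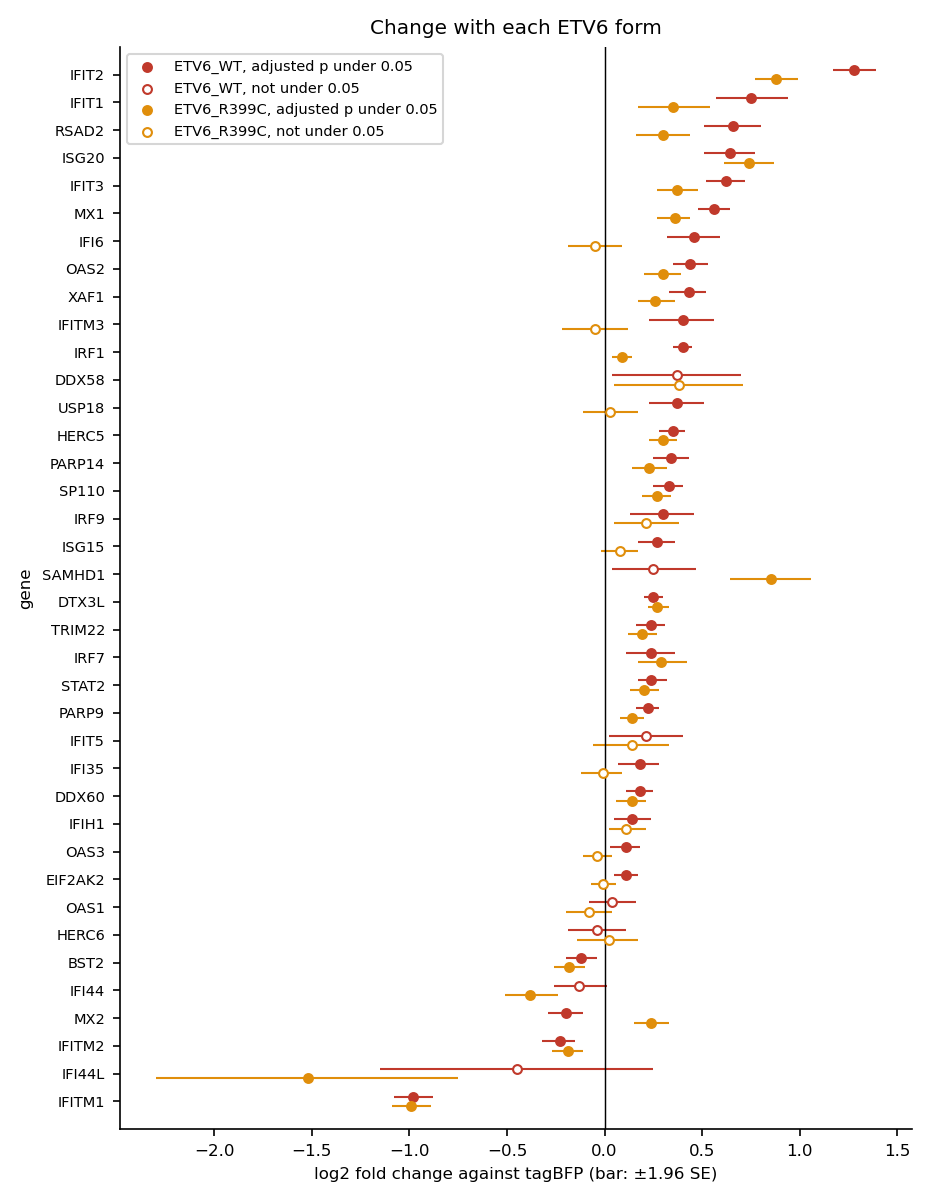
Log2 fold change of 38 interferon-stimulated genes with ETV6_WT (red) and ETV6_R399C (orange) against the same tagBFP libraries. Bars give a nominal 95% interval, the normal multiple of the SE, which is narrower than the test allows. Filled points have an adjusted p under 0.05. IFIT2 stands highest at 1.28 and 0.88, IFITM1 falls alike with both forms, and MX2 and SAMHD1 lie further right with ETV6_R399C.

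In bulk RNA a higher level may mean more RNA per cell or more cells that express the gene, which cannot be told apart. Marker genes moved too. The 7 myeloid markers summed to 27.6 to 34.7 TPM with tagBFP, 45.0 to 51.3 with ETV6_WT and 47.8 to 59.9 with ETV6_R399C, with ELANE, S100A8 and S100A9 at 0 reads throughout and MPO and CSF1R called higher with ETV6_WT. The 4 plasmacytoid dendritic cell markers summed to 64.8 ± 7.80, 98.3 ± 2.08 and 88.1 ± 5.21 TPM in the same order, most of it from TCF4, which B-lineage cells also express. Of the 8 B-lineage markers tested, 7 were called higher with each form, where 17.6% of all genes were with ETV6_WT and 18.8% with ETV6_R399C. The part of these shifts in the results was not tested.

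The list holds 4 transcription factors of the pathway, and all 4 were called higher with ETV6_WT, where 17.6% of all genes were. The calls of IRF7 and IRF9 did not hold under every alternative. STAT2, the activating subunit of the ISRE-binding complex (chr12:56341597-56360155), read 64.0, 65.7 and 64.5 CPM in the tagBFP libraries, 77.2, 75.5 and 77.5 with ETV6_WT and 78.5, 73.6 and 71.5 with ETV6_R399C. Every library of either ETV6 form lay above every tagBFP library (log2 0.24 ± 0.04, adjusted p = 3.4e-04 with ETV6_WT and log2 0.20 ± 0.04, adjusted p = 0.00103 with ETV6_R399C). IRF9, the DNA-binding subunit of that complex (chr14:24161053-24166565), read 7.22, 8.13 and 7.21 CPM in the tagBFP libraries, 9.21, 9.10 and 9.43 with ETV6_WT and 7.96, 9.02 and 9.21 with ETV6_R399C. The ETV6_WT libraries were all above tagBFP (log2 0.30 ± 0.08, adjusted p = 0.0172), but the ETV6_R399C libraries overlapped tagBFP (log2 0.21 ± 0.09, adjusted p = 0.0682). The IRF9 call with ETV6_WT was lost without ETV6_WT replicate 3 or tagBFP replicate 1 or 3 (adjusted p 0.0514 to 0.0726). That call was also lost with DESeq2 in place of edgeR (adjusted p = 0.0762). A correction of counts for changes in the mean length of a gene's transcripts, the length offset, removed it as well (adjusted p = 0.13). With ETV6_R399C, IRF9 passed without ETV6_R399C replicate 1 or tagBFP replicate 2 (adjusted p = 0.024 and 0.0409). For IRF9, another annotated transcript, AL136295.5, overlaps it on the same strand.

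IRF1, an activator induced by interferon gamma and inflammatory signals (chr5:132481609-132490798), had the smallest p of the 4 with ETV6_WT. It read 189.7, 191 and 184 CPM in the tagBFP libraries, 246, 248 and 248 with ETV6_WT and 202, 197 and 204 with ETV6_R399C. The ETV6_WT libraries stood clear of all others, while the ETV6_R399C libraries were only just above tagBFP (log2 0.40 ± 0.03, adjusted p = 3.5e-07 and log2 0.09 ± 0.03, adjusted p = 0.0123). IRF7, the factor that amplifies interferon production (chr11:612553-615999), read 21.3, 22.4 and 23.2 CPM in the tagBFP libraries, 24.0, 26.7 and 28.1 with ETV6_WT and 28.3, 27.7 and 25.9 with ETV6_R399C. It was higher with both forms (log2 0.24 ± 0.06, adjusted p = 0.0125 and log2 0.29 ± 0.06, adjusted p = 0.00332), and the call with ETV6_WT was lost when ETV6_WT replicate 2 or 3 or tagBFP replicate 1 or 2 was left out (adjusted p 0.0521 to 0.0836). Under the length offset neither IRF7 call was left (adjusted p = 0.0828 and 0.132).

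IFIT proteins bind foreign RNA caps and block its translation, and their genes sit side by side on chromosome 10. Of the 4, IFIT1, IFIT2 and IFIT3 were higher with both ETV6 forms. IFIT2 (chr10:89283694-89309276) read 11.47, 11.7 and 12.7 CPM in the tagBFP libraries, 30.0, 28.0 and 28.96 with ETV6_WT and 22.4, 21.1 and 22.2 with ETV6_R399C. The 3 groups did not overlap, with ETV6_R399C between tagBFP and ETV6_WT (log2 1.28 ± 0.06, adjusted p = 1.3e-08 and log2 0.88 ± 0.06, adjusted p = 4.9e-07). IFIT1 (chr10:89392546-89406486), whose promoter with the pair of ISRE cores is printed above, read 8.39, 8.31 and 8.35 CPM in the tagBFP libraries, 13.7, 14.1 and 14.5 with ETV6_WT and 9.04, 11.1 and 11.98 with ETV6_R399C. Its ETV6_WT libraries were the highest and the ETV6_R399C libraries the more scattered (log2 0.75 ± 0.09, adjusted p = 6.9e-05 and log2 0.35 ± 0.09, adjusted p = 0.0108).

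IFIT3 (chr10:89327894-89340971), which binds and stabilises IFIT1, read 29.8, 28.7 and 28.99 CPM in the tagBFP libraries, 46.9, 44.6 and 43.0 with ETV6_WT and 36.7, 36.0 and 40.5 with ETV6_R399C. The order of the groups was the same as for IFIT2 (log2 0.62 ± 0.05, adjusted p = 3.2e-06 and log2 0.37 ± 0.05, adjusted p = 1.7e-04). IFIT5, the fourth gene of the cluster, passed in neither comparison, with 9.16 ± 0.651 CPM with tagBFP and 10.6 ± 0.677 with ETV6_WT (log2 0.21 ± 0.10, adjusted p = 0.122). LIPA overlaps IFIT1, IFIT2 and IFIT3 on the other strand, and the strand setting of the counting is not given in the sources used here, so reads could have been exchanged.

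The RNA sensors of the list detect double-stranded RNA and trigger interferon production. DDX60, a helicase that assists RIG-I, rose with both forms (log2 0.18 ± 0.04, adjusted p = 0.00286 and log2 0.14 ± 0.04, adjusted p = 0.0134), although neither was called (adjusted p 0.0615 and 0.131) under the length offset. The ETV6_R399C call was also lost without ETV6_R399C replicate 2 (adjusted p = 0.0611). IFIH1, the sensor MDA5, was higher with ETV6_WT only just past the threshold (log2 0.14 ± 0.05, adjusted p = 0.0391). The call was lost without any one of tagBFP replicates 1 to 3 or ETV6_WT replicates 1 and 2 (adjusted p 0.112 to 0.2). DESeq2, no filter and the length offset also lost it (adjusted p = 0.128, 0.102 and 0.051). With ETV6_R399C IFIH1 passed only when ETV6_R399C replicate 3 was left out (adjusted p = 0.0361). DDX58, the sensor RIG-I, read 11.1, 10.2 and 10.1 CPM in the tagBFP libraries, 11.4, 17.1 and 11.9 with ETV6_WT and 12.8, 17.1 and 11.3 with ETV6_R399C. Replicate 2 was the highest in both ETV6 groups, and neither comparison passed (log2 0.37 ± 0.17, adjusted p = 0.11 and log2 0.38 ± 0.17, adjusted p = 0.0921), though ETV6_R399C passed with DESeq2, without a filter, with a replicate block, in a fit of those 2 groups alone and without its replicate 3 (adjusted p 0.0416 to 0.0499).

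OAS enzymes make the oligoadenylates that activate RNase L, and PKR, from EIF2AK2, stops translation. OAS2 (chr12:112978395-113011723) read 33.1, 31.4 and 32.4 CPM in the tagBFP libraries, 42.9, 46.2 and 42.1 with ETV6_WT and 38.7, 39.0 and 41.4 with ETV6_R399C. Both ETV6 groups lay above tagBFP (log2 0.44 ± 0.05, adjusted p = 2.5e-05 and log2 0.30 ± 0.05, adjusted p = 4.2e-04). The ETV6_WT libraries lay above those of ETV6_R399C, but the difference between the forms was not called (log2 0.14, adjusted p = 0.053). OAS3 and EIF2AK2 passed with ETV6_WT by small margins (log2 0.11 ± 0.04, adjusted p = 0.0464 for OAS3, log2 0.11 ± 0.03, adjusted p = 0.0195 for EIF2AK2) and not with ETV6_R399C. The OAS3 call was lost without any single one of the 6 libraries (adjusted p 0.0822 to 0.261), and the EIF2AK2 call without ETV6_WT replicate 2 or 3 or tagBFP replicate 2 or 3 (adjusted p 0.0651 to 0.137). Both calls were also lost under the length offset (adjusted p = 0.317 for OAS3 and 0.835 for EIF2AK2) and without a filter (0.0876 and 0.0533). DESeq2 lost that of OAS3 (adjusted p = 0.0638). OAS1 passed in no comparison (15.9 ± 0.409 CPM with tagBFP, 16.4 ± 0.312 with ETV6_WT). OASL was close to the floor, with 0.158, 0.286 and 0.127 CPM with tagBFP.

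ISG15 is a ubiquitin-like protein that HERC5 attaches to new proteins and USP18 removes. ISG15 (chr1:1001138-1014540) read 25.9, 27.8 and 27.1 CPM in the tagBFP libraries, 32.8, 32.8 and 31.3 with ETV6_WT and 27.0, 28.6 and 29.6 with ETV6_R399C. The rise with ETV6_WT exceeded the spread of the libraries (log2 0.27 ± 0.05, adjusted p = 0.0013), whereas ETV6_R399C overlapped tagBFP (log2 0.08 ± 0.05, adjusted p = 0.242). HERC5 (chr4:88457117-88506163) read 45.8, 45.5 and 43.4 CPM in the tagBFP libraries, 57.3, 57.9 and 56.3 with ETV6_WT and 54.1, 56.2 and 55.7 with ETV6_R399C. It was higher with both forms by similar amounts (log2 0.35 ± 0.03, adjusted p = 1.4e-05 and log2 0.30 ± 0.03, adjusted p = 4.3e-05).

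USP18 (chr22:18149899-18177397), which also shuts off the interferon receptor, read 10.8, 12.1 and 11.7 CPM in the tagBFP libraries, 15.2, 14.4 and 15.1 with ETV6_WT and 12.7, 10.9 and 11.6 with ETV6_R399C. Only the ETV6_WT group was clear of tagBFP (log2 0.37 ± 0.07, adjusted p = 0.0018 and log2 0.03 ± 0.07, adjusted p = 0.777). HERC6, the neighbour of HERC5, did not pass with either form (log2 -0.04 ± 0.08, adjusted p = 0.749 and log2 0.02 ± 0.08, adjusted p = 0.904).

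MX1 and MX2, neighbouring genes on chromosome 21 for GTPases that trap viral particles, parted with ETV6_WT. MX1 (chr21:41420304-41459214) read 31.6, 32.1 and 31.2 CPM in the tagBFP libraries, 48.0, 47.4 and 44.7 with ETV6_WT and 41.7, 40.7 and 39.0 with ETV6_R399C, and rose with both forms (log2 0.56 ± 0.04, adjusted p = 1.2e-06 and log2 0.36 ± 0.04, adjusted p = 4.9e-05). The groups did not overlap, with ETV6_R399C in the middle. With the length offset the ETV6_R399C call was lost (log2 0.17, adjusted p = 0.184). MX2 (chr21:41361943-41409390) read 45.7, 46.6 and 43.7 CPM in the tagBFP libraries, 40.7, 40.8 and 37.0 with ETV6_WT and 53.5, 55.3 and 52.2 with ETV6_R399C. It fell with ETV6_WT (log2 -0.20 ± 0.05, adjusted p = 0.00595) and rose with ETV6_R399C (log2 0.24 ± 0.05, adjusted p = 0.00121), so that tagBFP was the middle group. Both MX2 calls were lost under the length offset (log2 -0.14, adjusted p = 0.35, and log2 0.21, adjusted p = 0.136).

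The IFITM genes, a cluster on chromosome 11 for membrane proteins that block virus entry, held the largest fall with ETV6_WT. IFITM1 (chr11:313506-315272) read 22.2, 22.6 and 22.3 CPM in the tagBFP libraries, 11.1, 11.3 and 11.7 with ETV6_WT and 11.2, 10.9 and 11.7 with ETV6_R399C. The libraries of both ETV6 forms covered the same narrow range, well below all tagBFP libraries (log2 -0.98 ± 0.05, adjusted p = 8.5e-08 and log2 -0.99 ± 0.05, adjusted p = 1.2e-07). IFITM2 fell less, from 90.6 ± 5.24 CPM with tagBFP to 77.0 ± 1.83 with ETV6_WT and 79.3 ± 1.42 with ETV6_R399C (log2 -0.23 ± 0.04, adjusted p = 0.00104 and log2 -0.19 ± 0.04, adjusted p = 0.00329). IFITM1 and IFITM2 overlap on the same strand and have similar sequences, so their reads could have been shared between them.

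IFITM3 (chr11:319669-327537) went the other way and read 13.4, 15.8 and 16.3 CPM in the tagBFP libraries, 19.4, 20.7 and 19.6 with ETV6_WT and 15.4, 13.1 and 15.2 with ETV6_R399C. It rose with ETV6_WT and was not called with ETV6_R399C (log2 0.40 ± 0.08, adjusted p = 0.00286 and log2 -0.05 ± 0.08, adjusted p = 0.689). BST2, which holds budding virions at the surface, fell with both forms (log2 -0.12 ± 0.04, adjusted p = 0.0324 and log2 -0.18 ± 0.04, adjusted p = 0.00325); the ETV6_WT call was lost without ETV6_WT replicate 2 (adjusted p = 0.0706) or replicate 3 (adjusted p = 0.0741), and under the length offset (adjusted p = 0.0912).

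Among the other antiviral effectors, RSAD2, or viperin, makes a nucleotide that ends viral RNA chains (chr2:6865806-6898239). It read 8.55, 7.70 and 8.52 CPM in the tagBFP libraries, 13.0, 13.0 and 13.1 with ETV6_WT and 10.5, 9.46 and 10.5 with ETV6_R399C. The 3 groups were ordered as for IFIT2 and did not overlap (log2 0.66 ± 0.07, adjusted p = 2.9e-05 and log2 0.30 ± 0.07, adjusted p = 0.0065). The ETV6_R399C call was lost under the length offset (adjusted p = 0.0851). CMPK2 overlaps RSAD2 on the other strand. ISG20, an exonuclease that degrades RNA (chr15:88636153-88656483), read 7.51, 7.41 and 7.34 CPM in the tagBFP libraries, 11.3, 11.6 and 11.8 with ETV6_WT and 13.2, 11.8 and 12.1 with ETV6_R399C. Both ETV6 groups stood well above tagBFP and close to each other (log2 0.64 ± 0.07, adjusted p = 2.5e-05 and log2 0.74 ± 0.07, adjusted p = 7.8e-06).

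SAMHD1, which breaks down deoxynucleotides and so starves reverse transcription (chr20:36889773-36951901), read 4.12, 4.69 and 4.56 CPM in the tagBFP libraries, 4.61, 5.63 and 5.63 with ETV6_WT and 8.15, 8.30 and 7.57 with ETV6_R399C. The ETV6_R399C libraries stood well above all others (log2 0.85 ± 0.11, adjusted p = 7.9e-05), and ETV6_WT overlapped tagBFP (log2 0.25 ± 0.11, adjusted p = 0.0974). Without ETV6_WT replicate 1, ETV6_WT passed as well (log2 0.32, adjusted p = 0.0457). SP110, a nuclear body protein (chr2:230167293-230225729), read 41.7, 41.5 and 39.7 CPM in the tagBFP libraries, 52.4, 52.3 and 49.6 with ETV6_WT and 50.6, 48.3 and 49.3 with ETV6_R399C, and both forms lay above tagBFP (log2 0.33 ± 0.04, adjusted p = 4.8e-05 and log2 0.27 ± 0.04, adjusted p = 1.9e-04). The ETV6_WT call was lost under the length offset (adjusted p = 0.0507). TRIM22, a ubiquitin ligase, rose alike with both (log2 0.24 ± 0.04, adjusted p = 4.8e-04 and log2 0.19 ± 0.04, adjusted p = 0.00177). TLDC2 overlaps SAMHD1, SP140 overlaps SP110 and TRIM5 overlaps TRIM22 on the other strand.

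IFI6, a mitochondrial and ER membrane protein that blocks flavivirus replication (chr1:27666061-27672218), read 24.2, 22.7 and 25.0 CPM in the tagBFP libraries, 31.3, 32.7 and 34.5 with ETV6_WT and 22.1, 21.5 and 25.7 with ETV6_R399C. ETV6_WT was clear of the other groups, which overlapped each other (log2 0.46 ± 0.07, adjusted p = 3.3e-04 and log2 -0.05 ± 0.07, adjusted p = 0.615). XAF1, a pro-apoptotic antagonist of XIAP (chr17:6755447-6775647), read 35.9, 36.3 and 34.0 CPM in the tagBFP libraries, 45.6, 47.5 and 49.9 with ETV6_WT and 43.3, 43.9 and 40.3 with ETV6_R399C. Its groups did not overlap, with ETV6_R399C between the others (log2 0.43 ± 0.05, adjusted p = 3.3e-05 and log2 0.26 ± 0.05, adjusted p = 0.00112). IFI35 was higher with ETV6_WT only (log2 0.18 ± 0.05, adjusted p = 0.0205), a call lost without ETV6_WT replicate 1 or 3 or tagBFP replicate 2 or 3 (adjusted p 0.0506 to 0.146). The IFI35 call was also lost with DESeq2 (adjusted p = 0.0697) and under the length offset (adjusted p = 0.183).

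IFI44, and its neighbour IFI44L on chromosome 1, fell with ETV6_R399C. IFI44 read 21.5, 22.3 and 24.4 CPM in the tagBFP libraries, 19.5, 21.4 and 21.4 with ETV6_WT and 16.2, 17.7 and 18.6 with ETV6_R399C. The ETV6_R399C libraries were the lowest and fell against tagBFP (log2 -0.38 ± 0.07, adjusted p = 0.00111), while ETV6_WT was not called (log2 -0.13 ± 0.07, adjusted p = 0.177). Under the length offset the ETV6_R399C call was lost (log2 -0.30, adjusted p = 0.136). IFI44L read 0.507, 1.22 and 1.44 CPM in the tagBFP libraries, 0.658, 0.809 and 0.804 with ETV6_WT and 0.386, 0.289 and 0.389 with ETV6_R399C, from 6 to 34 reads a library. The ETV6_R399C libraries were lowest (log2 -1.52 ± 0.40, adjusted p = 0.00918), but tagBFP replicate 1 was lower than the other tagBFP libraries and ETV6_WT overlapped tagBFP (log2 -0.45 ± 0.36, adjusted p = 0.368). Without tagBFP replicate 1 the fall with ETV6_WT was called too (log2 -0.82, adjusted p = 0.0437).

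PARP9, DTX3L and PARP14, partners that attach ADP-ribose and ubiquitin and support interferon signalling, lie close together on chromosome 3. All 3 rose with both forms, though PARP14 was not called with ETV6_R399C under the length offset (log2 0.18, adjusted p = 0.271). DTX3L (chr3:122564238-122575203) read 112, 114 and 114 CPM in the tagBFP libraries, 132, 136 and 134 with ETV6_WT and 136, 134 and 139.6 with ETV6_R399C. Both ETV6 groups were clear of tagBFP and overlapped each other (log2 0.25 ± 0.03, adjusted p = 3.0e-05 and log2 0.27 ± 0.03, adjusted p = 1.4e-05). PARP9 changed by log2 0.22 and 0.14, and PARP14 by 0.34 and 0.23 (adjusted p from 1.4e-04 to 0.00333). DTX3L and PARP9 overlap on opposite strands. The plot of every library against its control shows these groups of genes side by side.

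**Figure D3:**
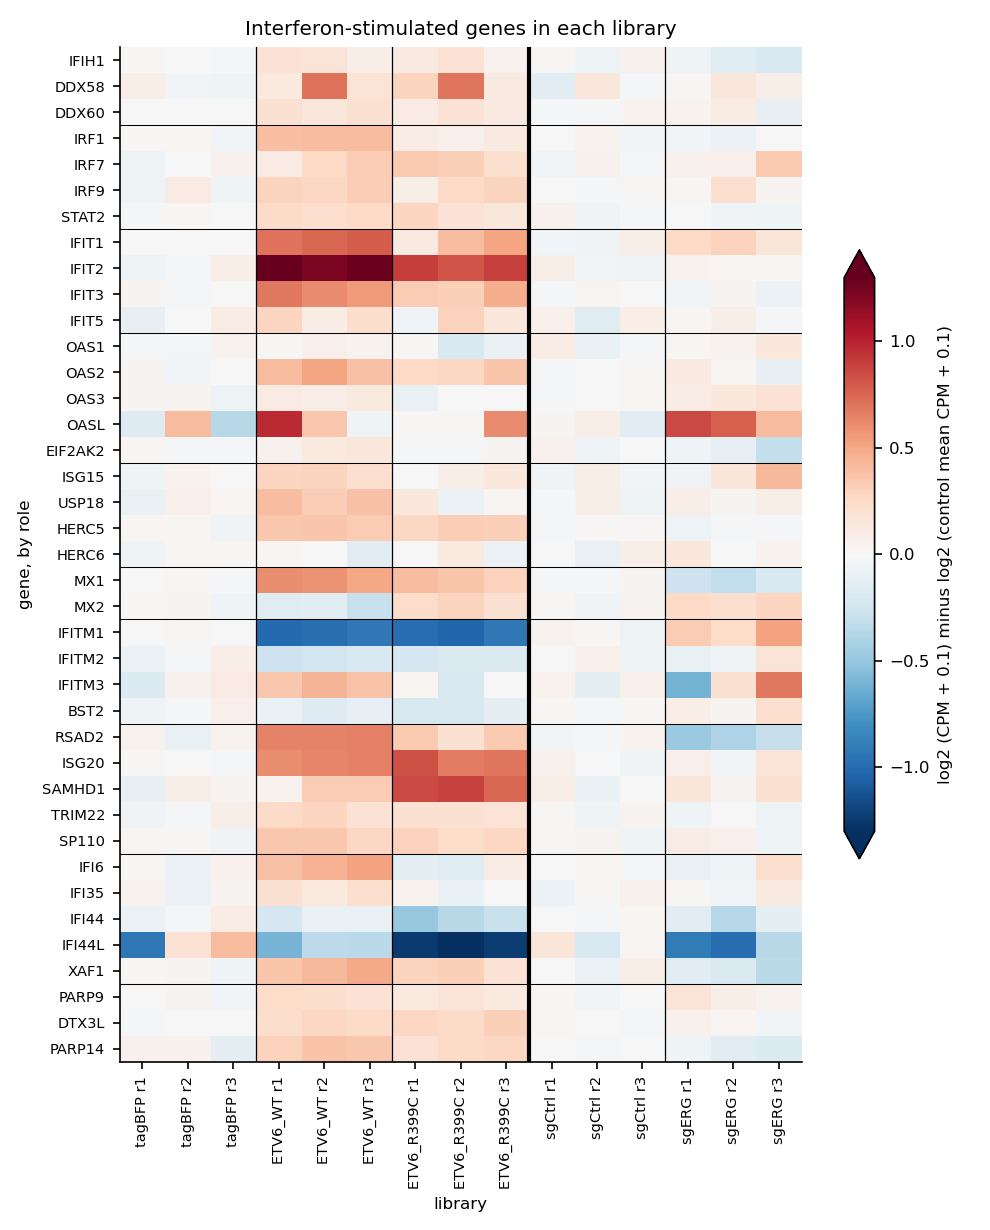
Log2 ratio of each library to the mean of its own control group (tagBFP or sgCtrl), after adding 0.1 CPM, for 39 interferon-stimulated genes (rows, by role) and 15 libraries (columns); colours saturate at 1.3. Red fills most ETV6_WT rows and IFITM1 is blue in all 6 ETV6 libraries, while the sgERG columns are pale apart from a few rows.

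The direct test between the ETV6 forms, which uses the same libraries again, called 15 members higher and 2 lower with ETV6_WT than with ETV6_R399C. This is 44.7% of the 38 tested, where 21.4% of all genes were called, 12.1% higher and 9.29% lower. The median member stood 0.10 higher on the log2 scale, against 0.02 for all genes. The groups did not overlap for 21 members higher and 3 lower, where 38.4% of all genes did not overlap, 22% higher and 16.4% lower. ETV6 itself was 1.302-fold higher in the ETV6_WT libraries, and the part of that difference in these calls was not tested.

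IFI6 and IFITM3 had the largest differences among the members called higher (log2 0.51 ± 0.07, adjusted p = 4.2e-04 for IFI6, log2 0.45 ± 0.08, adjusted p = 0.00318 for IFITM3). IFIT1 and IFIT2 differed by the same log2 0.40 (0.00945 and 3.1e-04 as adjusted p), and IFIT3 by 0.25 (adjusted p = 0.00584). RSAD2 (log2 0.36 ± 0.07, adjusted p = 0.00456), USP18 (log2 0.34 ± 0.07, adjusted p = 0.00677), IRF1 (log2 0.30 ± 0.03, adjusted p = 1.1e-05) and MX1 (log2 0.21 ± 0.04, adjusted p = 0.00486) followed. Under the length offset RSAD2, USP18 and MX1 lost this call (adjusted p 0.0552 to 0.17). The rest were ISG15, OAS3, EIF2AK2, IFI35, IFI44 and XAF1, with log2 differences of 0.12 to 0.25 (adjusted p 0.0193 to 0.0282). Each of these 6 lost its call under the length offset and when single libraries were left out, all of them without ETV6_WT replicate 2 (adjusted p 0.0576 to 0.169). The members lower with ETV6_WT were SAMHD1 (log2 -0.59 ± 0.11, adjusted p = 0.00239) and MX2 (log2 -0.44 ± 0.05, adjusted p = 6.1e-05).

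For 21 members no difference between the forms was called. The intervals are unadjusted for the number of genes. They are nominal, since the normal multiple of the SE makes them narrower than the test allows. Within that limit they were short for some, such as IFITM1 (nominal 95% interval of the log2 difference -0.10 to 0.12) and DTX3L (-0.08 to 0.03). Those of STAT2 (-0.03 to 0.11) and HERC5 (-0.02 to 0.12) were short too. The intervals were wide for DDX58 (-0.34 to 0.31) and IFI44L (0.26 to 1.89). Under all alternatives tried, 6 of the 15 higher calls held, those of IFI6, IFIT1, IFIT2, IFIT3, IFITM3 and IRF1, and both lower calls held. The count of 17 fell to 8 with the length offset and to 11 without ETV6_WT replicate 2.

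**Figure D4:**
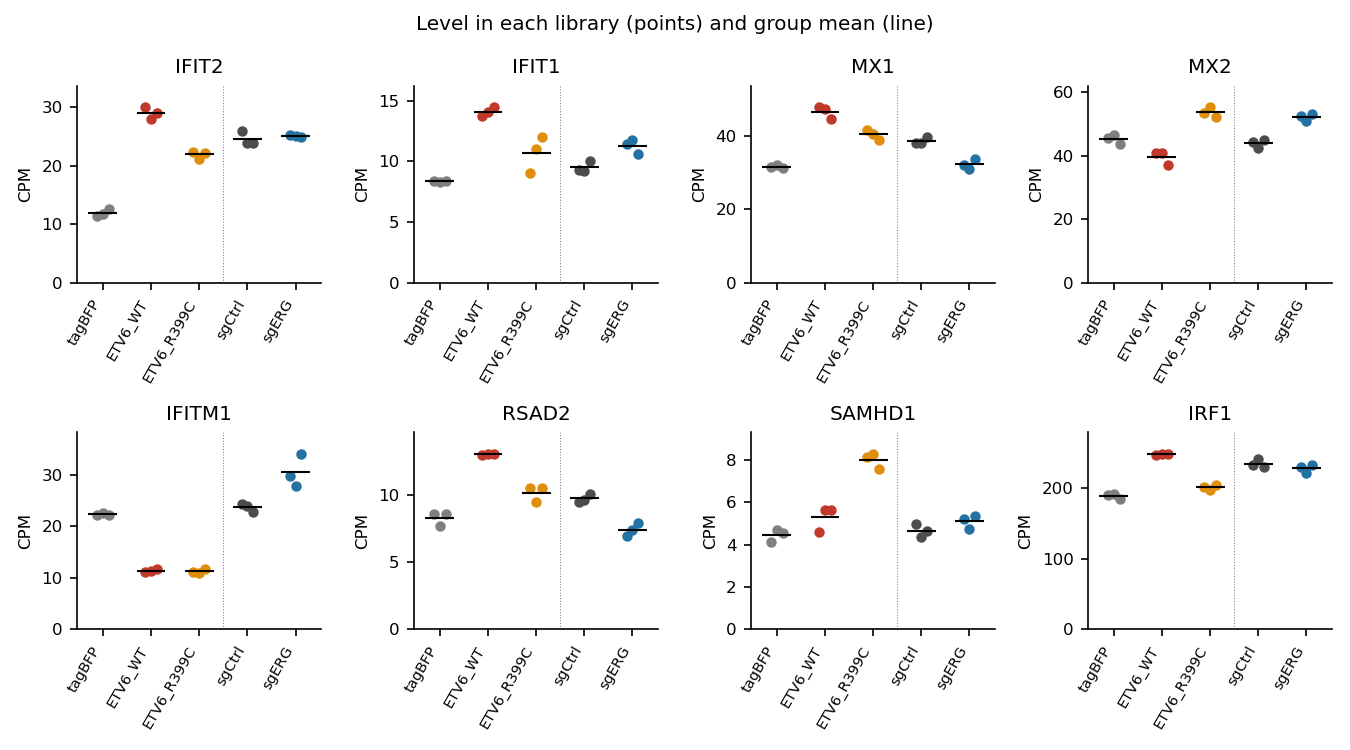
CPM of 8 interferon-stimulated genes in each library (points, 3 per group) with the group mean (line), axes from 0; the dotted line parts the ETV6 experiment from the dCas9-KRAB experiment. IFIT2, IFIT1, MX1 and RSAD2 step down from ETV6_WT to ETV6_R399C to tagBFP, IFITM1 is low with both forms, and SAMHD1 is high with ETV6_R399C alone.

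With the guide against ERG most of these genes had no call. Of the 39 members tested, 3 were higher and 4 lower with sgERG than with sgCtrl, 17.9% in all, where 14.6% of the 13464 genes tested were called, 6.89% higher and 7.74% lower. That share is near the background. The median log2 change was 0.03, against 0.00 for all genes. Summed myeloid markers were 41.6 to 47.6 TPM with sgCtrl and 55.0 to 62.5 with sgERG, and summed stromal markers 34.2 to 40.7 and 45.8 to 47.4. Their part in the results was not tested.

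The GTPase genes moved in opposite directions here as well. MX2 read 44.4, 42.5 and 45.0 CPM with sgCtrl and 52.6, 50.9 and 53.2 with sgERG, and rose (log2 0.25 ± 0.05, adjusted p = 0.00597). MX1 read 38.3, 38.2 and 39.9 with sgCtrl and 32.1, 31.1 and 33.9 with sgERG, and fell (log2 -0.26 ± 0.05, adjusted p = 0.00943). In neither gene did the groups overlap. IFITM1 read 24.5, 24.0 and 22.7 CPM with sgCtrl and 29.9, 28.0 and 34.2 with sgERG (log2 0.37 ± 0.08, adjusted p = 0.00948), with sgERG replicate 3 the highest.

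RSAD2 read 9.45, 9.63 and 10.1 CPM with sgCtrl and 6.94, 7.36 and 7.88 with sgERG, and fell (log2 -0.40 ± 0.09, adjusted p = 0.0108). XAF1 read 52.9, 50.4 and 56.1 and 48.3, 46.6 and 41.5 in the same order (log2 -0.22 ± 0.07, adjusted p = 0.0469), and OAS3 read 147, 149.7 and 152 and 159.9, 164 and 170.2 (log2 0.14 ± 0.04, adjusted p = 0.0416). IFI44L, at 5.20, 4.07 and 4.73 CPM with sgCtrl and 2.43, 2.30 and 3.60 with sgERG, had the largest called change (log2 -0.76 ± 0.18, adjusted p = 0.0206). The groups did not overlap in any of the 7 genes called. They did not overlap for 8 members higher and 7 lower in all, where 34.6% of all genes did not, 17% higher and 17.6% lower. None of the 7 calls held under every alternative. Without sgCtrl replicate 3 only the MX2 call was left, and without sgCtrl replicate 1 or sgERG replicate 2 there were 4.

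IFIT2 and the 4 transcription factors had no call with sgERG. IFIT2 read 25.9, 23.9 and 23.8 CPM with sgCtrl and 25.3, 25.0 and 24.9 with sgERG (nominal 95% interval of the log2 change -0.08 to 0.15). For IRF1 the values were 232, 240.5 and 229 and 229, 221 and 232 (-0.12 to 0.04), and for STAT2 76.3, 71.3 and 72.8 and 73.2, 71.0 and 70.7 (-0.12 to 0.05). In IFIT2, IRF1 and STAT2 the libraries of the groups overlapped.

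IRF7 read 40, 42.5 and 40.5 CPM with sgCtrl and 42.5, 43.0 and 52.1 with sgERG (0.01 to 0.31). The IRF7 interval excludes 0, though the test gave none of the 4 factors an unadjusted p under 0.05. This comes from how all the intervals were made. They take the normal multiple of the SE, which is narrower than the test allows with so few libraries. An interval can thus exclude 0 without such a p, and calls rest on the test alone. IRF9 read 8.65, 8.44 and 8.68 and 8.75, 9.99 and 8.82, groups that lay just apart without a call (-0.07 to 0.26). ISG15 read 16.2, 17.6 and 16.2 and 16.1, 18.6 and 22.3 (-0.02 to 0.40). In IRF7 and ISG15 it was sgERG replicate 3 that was highest, as in IFI6 and IFITM2. OASL missed the threshold with a large estimate (log2 0.78 ± 0.25, adjusted p = 0.0647), at 0.730, 0.760 and 0.637 and 1.36, 1.29 and 0.977 CPM, and IFITM3 stood at 10 to 26 reads a library.

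Whether the experiments differed was tested directly, as the change with ETV6_WT minus the change with sgERG, in a fit of all 15 libraries. The experiments share no library. They differ in vector, sorting, induction time and depth, which cancel only as far as each control carries them. The test uses again the libraries of the comparisons above, so it is not independent of them. The difference between the changes was positive for 19 members and negative for 4, 59% of the 39 tested, where 30% of the 14969 genes tested differed, 14.3% upward and 15.7% downward. IFIT2 had the largest positive difference (log2 1.25 ± 0.08, adjusted p = 4.9e-09), followed by RSAD2 (log2 1.05 ± 0.10, adjusted p = 1.2e-06) and MX1 (log2 0.82 ± 0.06, adjusted p = 8.5e-08). The negative ones were IFITM1 (log2 -1.35 ± 0.09, adjusted p = 2.2e-08), MX2 (log2 -0.45 ± 0.06, adjusted p = 5.7e-05), IFITM2 (log2 -0.25 ± 0.09, adjusted p = 0.0387) and BST2 (log2 -0.24 ± 0.06, adjusted p = 0.0113). Among the factors, IRF1 and STAT2 differed (log2 0.43 ± 0.04, adjusted p = 8.0e-07 and log2 0.28 ± 0.05, adjusted p = 0.00109) and IRF7 and IRF9 were not called (log2 0.08 ± 0.11, adjusted p = 0.665 and log2 0.20 ± 0.11, adjusted p = 0.214). USP18 (log2 0.30 ± 0.10, adjusted p = 0.0307) lost its call without ETV6_WT replicate 1 or 3, tagBFP replicate 1, sgERG replicate 2 or sgCtrl replicate 1 or 2 (adjusted p 0.0517 to 0.0848). IFITM2 lost its call without ETV6_WT replicate 1 or 2, tagBFP replicate 2 or 3, sgERG replicate 3 or sgCtrl replicate 1 or 3 (adjusted p 0.0541 to 0.1).

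**Figure D5:**
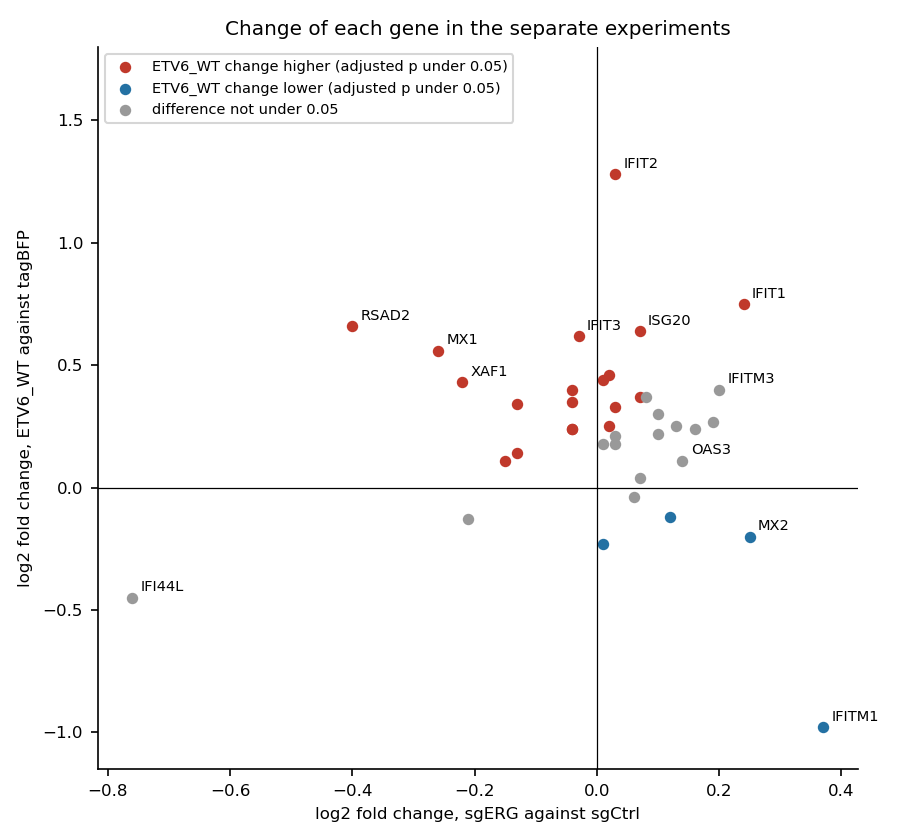
Log2 change of 38 interferon-stimulated genes with sgERG (x axis) and with ETV6_WT (y axis), each against its own control; red and blue mark a called difference between the changes. MX1, RSAD2 and XAF1 lie at upper left, MX2 and IFITM1 at lower right, and most other genes lie near 0 on the x axis.

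In 5 of the 38 members tested in both fits (13.2%) the 2 experiments gave calls in opposite directions, as did 4.84% of the 12825 genes tested in both. The sgERG calls behind these are those of which none held under every alternative and whose share, 17.9%, was near the 14.6% of all genes. MX1, RSAD2 and XAF1 were higher with ETV6_WT and lower with sgERG, and MX2 and IFITM1 were lower with ETV6_WT and higher with sgERG. OAS3 was called higher in both, by log2 0.11 and 0.14, and no member was called lower in both. Both OAS3 calls were lost when single libraries were left out. The share of all genes called in the same direction in both was not counted, so no baseline is given for it. The test of the difference was past the threshold for all 5, with adjusted p from 2.2e-08 for IFITM1 to 5.7e-05 for MX2. The 5 had been picked by opposite calls in the same libraries, so that outcome was nearly fixed and adds no support. With the length offset MX2 lost its difference (log2 -0.30, adjusted p = 0.073). IFI44L was lower with sgERG and with ETV6_R399C, while its difference between ETV6_WT and sgERG was not called (log2 0.31 ± 0.41, adjusted p = 0.639).

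Members with an ISRE core in any of their windows are set beside those without one here. RSAD2 counts as having the core through a window at another start, not the one printed above. With ETV6_WT, 16 of 21 tested members with the core were higher and 2 lower, and 6 of 10 without it were higher and 0 lower, where 17.6% of all genes were higher and 18.9% lower, with median log2 changes of 0.25 and 0.28. With ETV6_R399C the counts were 10 higher and 4 lower of 21, and 5 higher and 0 lower of 10, where 18.8% of all genes were higher and 22.1% lower. Between the ETV6 forms they were 10 higher and 0 lower of 21, and 3 higher and 1 lower of 10 (12.1% and 9.29% of all genes). With sgERG they were 2 higher and 3 lower of 21, and 0 higher and 1 lower of 10 (6.89% and 7.74%). No test was made of these shares.

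Upstream of the response, interferon transcripts themselves were at or near 0. Of 12 measured ligand genes, 11 had 0 reads in all 15 libraries, and IFNL1 had 1 read in 1 sgCtrl library. A count of 0 allows up to 3 reads in a library. Among 8 tested receptors and Janus kinases, 3 (37.5%) were called with ETV6_WT, all higher, a share near the 36.5% of all genes called. They were led by JAK1, a kinase of all interferon receptors, at 63.8 ± 2.51 CPM with tagBFP and 91.7 ± 1.27 with ETV6_WT (log2 0.52 ± 0.04, adjusted p = 8.8e-07), and JAK2 (log2 0.36 ± 0.05, adjusted p = 1.5e-04). With ETV6_R399C 3 (37.5%, against 40.9% of all genes) were called and rose, JAK1 (log2 0.40 ± 0.04, adjusted p = 9.3e-06), the receptor chain IFNAR1 (log2 0.23 ± 0.05, adjusted p = 0.00172) and IL10RB, a chain shared with interleukin receptors (log2 0.15 ± 0.04, adjusted p = 0.0124). With sgERG JAK2 was the only call, as lower, 12.5% of the 8 against 14.6% of all genes (log2 -0.30 ± 0.06, adjusted p = 0.00905).

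Of 11 tested further STAT and IRF factors, 7 rose with ETV6_WT (63.6% called, against 36.5% of all genes), and 7 rose and 1 fell with ETV6_R399C (72.7% against 40.9%). IRF8, a factor of B and myeloid cells that binds ETS-IRF composites, went from 11.8 ± 0.705 CPM with tagBFP to 21.9 ± 1.23 with ETV6_WT and 25.3 ± 1.16 with ETV6_R399C (log2 0.89 ± 0.07, adjusted p = 1.1e-06 and log2 1.10 ± 0.06, adjusted p = 2.6e-07). It rose with sgERG too, from 14.96 ± 1.23 to 23.1 ± 0.697 (log2 0.63 ± 0.07, adjusted p = 2.5e-04). IRF2, a competitor of IRF1, rose with ETV6_WT (log2 0.50 ± 0.03, adjusted p = 5.6e-07) and fell with sgERG (log2 -0.37 ± 0.04, adjusted p = 1.5e-04). NLRC5, the activator of MHC class I genes, read 43.1 ± 4.20, 73.3 ± 1.10 and 48.2 ± 0.452 CPM with tagBFP, ETV6_WT and ETV6_R399C, a rise with ETV6_WT (log2 0.76 ± 0.06, adjusted p = 1.1e-06). IRF5, a factor of the inflammatory response, fell with sgERG (log2 -0.58 ± 0.08, adjusted p = 7.3e-04), so that with sgERG 2 of 11 rose and 3 fell (45.5% against 14.6%).

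Of 11 tested negative regulators of the pathway, 4 rose and 1 fell with ETV6_WT (45.5% called, against 36.5% of all genes), 3 rose and 1 fell with ETV6_R399C (36.4% against 40.9%), and 1 rose and 1 fell with sgERG (18.2% against 14.6%). These shares were near those of all genes. IRF2BP2, a corepressor of IRF2, went from 292 ± 8.86 CPM with tagBFP to 517 ± 10.3 with ETV6_WT, and ETV6_R399C libraries held 595 ± 11.0 (log2 0.82 ± 0.03, adjusted p = 3.1e-09 and log2 1.02 ± 0.03, adjusted p = 9.6e-10). SOCS1, which inhibits Janus kinases, rose from 2.35 ± 0.137 to 4.23 ± 1.08 CPM with ETV6_WT (log2 0.86 ± 0.19, adjusted p = 0.00445).

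Among nucleic acid sensors and adaptors, 5 were higher and 1 lower of 15 tested with sgERG (40% called, against 14.6% of all genes). STING1, the adaptor of the DNA sensor cGAS, read 12.4, 12.7 and 12.8 CPM with sgCtrl and 24.8, 26.4 and 28.0 with sgERG, all sgERG libraries being above all sgCtrl libraries (log2 1.06 ± 0.07, adjusted p = 2.7e-06). TLR9, an endosomal DNA sensor, rose too (log2 1.32 ± 0.19, adjusted p = 0.00118), and DHX58, the RIG-I-like protein LGP2, fell (log2 -0.41 ± 0.08, adjusted p = 0.00685). With ETV6_WT DHX58 rose (log2 0.27 ± 0.09, adjusted p = 0.0372) and 3 of 16 fell, a called share of 25% that was below the 36.5% of all genes. The 3 were STING1 (log2 -0.34 ± 0.07, adjusted p = 0.00324), CGAS (log2 -0.33 ± 0.06, adjusted p = 0.00181) and UNC93B1 (log2 -0.43 ± 0.12, adjusted p = 0.0132). The difference between the experiments was called for 6 of 16 in this list, 2 upward and 4 downward (37.5%, against 30% of all genes).

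Of 30 tested other interferon-stimulated genes outside the list of 40, 16 rose and 4 fell with ETV6_WT (66.7% called, against 36.5% of all genes), and 16 rose and 6 fell with ETV6_R399C (73.3% against 40.9%). GBP4, a guanylate-binding protein, read 36.8, 36.6 and 38.2 CPM with tagBFP, 70.5, 70.8 and 66.5 with ETV6_WT and 44.4, 44.3 and 46.4 with ETV6_R399C, in 3 groups that did not overlap (log2 0.90 ± 0.04, adjusted p = 1.3e-08). With sgERG it fell from 59.7, 57.7 and 58.0 to 33.3, 30.7 and 29.6 CPM (log2 -0.90 ± 0.06, adjusted p = 2.3e-06), among 2 genes higher and 6 lower of 31 (25.8% against 14.6%). LGALS9, or galectin 9, rose with ETV6_WT and with sgERG (log2 0.67 ± 0.03, adjusted p = 4.7e-08 and log2 0.52 ± 0.06, adjusted p = 2.1e-04).

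MHC class I presentation genes, which interferons also induce, rose in 7 of 10 tested with ETV6_WT (70% called, against 36.5% of all genes) and in 4 of 10 with ETV6_R399C, with none lower. The ETV6_R399C share, 40%, was near the 40.9% of all genes. B2M, the shared light chain, went from 690.4 ± 47.9 to 899 ± 20.3 CPM with ETV6_WT (log2 0.38 ± 0.04, adjusted p = 3.3e-05). With sgERG 3 of 8 fell (37.5% called, against 14.6% of all genes), among them ERAP1, which trims peptides for presentation (log2 -0.25 ± 0.04, adjusted p = 0.00336).

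The deposited tables split each gene into transcripts, whose shares are estimates. IFIT2 has 1 transcript in the tables. Of the IFITM1 transcripts, IFITM1-202 stood at 35.9 ± 3.39 TPM with tagBFP, 17.3 ± 2.90 with ETV6_WT and 16.3 ± 1.36 with ETV6_R399C, and IFITM1-201 stood at 6.82 ± 2.26, 4.60 ± 3.34 and 6.68 ± 0.912 TPM. For ISG20 the values of ISG20-208 were 5.33 ± 1.95, 11.0 ± 0.831 and 12.4 ± 1.19 TPM, while ISG20-202 stood at 1.13 ± 0.983 TPM with tagBFP and 19.2 ± 2.88 with sgCtrl. MX2-201, the main MX2 transcript, stood at 13.1 ± 0.583, 10.8 ± 0.333 and 16.7 ± 0.294 TPM with tagBFP, ETV6_WT and ETV6_R399C, and at 14.3 ± 0.577 and 17.8 ± 0.359 with sgCtrl and sgERG. No test was made on single transcripts.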

How the data were processed

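RNA-seq reads of 15 libraries had been quantified by the authors with Salmon 0.11.3 against hg38 transcripts, per the submitters' processing notes. The deposited tables give, per transcript, an estimated count of reads and a TPM value, per the file headers. The strand setting and the bias options were not given in the sources used here. GENCODE release 29 names matched 90.3% of 167268 transcripts, and 6.67 to 7.56% of each library's reads were on unnamed transcripts and were left out. Estimated counts were summed by gene and rounded to whole numbers, and TPM was summed by gene. Changes were tested with edgeR 4.0.16 in R 4.3.3 (TMM scaling, quasi-likelihood test, Benjamini-Hochberg adjustment over all genes tested), after edgeR's filter on low counts with its default settings. One fit held the 9 libraries of the ETV6 experiment (14242 genes), one the 6 dCas9-KRAB libraries (13464) and one all 15 (14969) for the difference between the experiments. The scripts were tested on simulated data. DESeq2 1.42.0, no filter, a transcript length offset, a replicate block, other sets of libraries and each library left out were tried as alternatives.

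Library values were given for up to 12 members with the smallest p in each comparison, for members called in opposite directions in the experiments, and always for ISG15, STAT2, IRF9, IRF1 and IRF7, with up to 3 genes of each other list. The members and lists were chosen with earlier results of these data known. Promoter sequences came from RefSeq on GRCh38.p14 and gene positions from GENCODE on hg38. Replicate libraries differed by more than sampling noise (chi-square per degree of freedom 2.79 to 13.99). The highest values, 13.99 and 12.33, were those of sgERG replicate 3 against sgERG replicates 1 and 2, which gave 6.66 between themselves. Without sgERG replicate 3, 5 members were called higher and 3 lower with sgERG, where 16.8% of all genes were called. Depth limits genes such as IFI27, and estimated counts carry assignment error beyond counting error. Listed genes that were not in the tables by name, such as HLA-E and TAP1, were not analysed here.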

Additional observations from a re-analysis of the deposited data

How the results depend on the processing

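Counts of interferon-stimulated genes called were 31 for ETV6_WT, 25 for ETV6_R399C, 17 between the ETV6 forms, 7 for sgERG and 23 for the difference between the experiments. With the length offset they were 21, 18, 8, 2 and 16, and the counts over all genes fell from 5202, 5826, 3044, 1969 and 4487 to 2913, 3427, 1236, 1357 and 2647. The cause was not tested. Leaving out 1 library at a time gave 25 to 29, 24 to 27, 11 to 17, 1 to 8 and 21 to 24. Of all genes, those fits called 29.9 to 33.5%, 33.8 to 38.7%, 14 to 21.5%, 8.54 to 16.8% and 25.7 to 29.6%. The lowest count between the ETV6 forms, 11, came without ETV6_WT replicate 2, where the count over all genes was 2010. For sgERG, 4 were left without sgERG replicate 2 or sgCtrl replicate 1 and 1 without sgCtrl replicate 3, and the counts over all genes without those sgCtrl libraries were 1160 and 1162. The direction of 1 call turned: EIF2AK2 between the ETV6 forms was -0.02 with the length offset (adjusted p = 0.905). Of the members called with ETV6_WT, 19 of 27 higher and 2 of 4 lower calls held under every alternative run, with ETV6_R399C 14 of 20 and 4 of 5, and with sgERG 0 of 7.

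Same-numbered libraries did not deviate together (correlations -0.08 to 0.10), so replicate numbers do not pair them. With a replicate block the counts were 30, 26, 17, 5 and 21. Of all genes, those fits called 35.7%, 39.7%, 20.9%, 11.4% and 27.7%. The exclusion of members that overlap another gene left 25 members, of which 15 were higher and 2 lower of 23 tested with ETV6_WT (17.6% and 18.9% of all genes). With ETV6_R399C 10 were higher and 3 lower of 23 (18.8% and 22.1%), and between the forms 8 and 1 of 23 (12.1% and 9.29%). With sgERG 2 were higher and 3 lower of 24 (6.89% and 7.74%), and for the difference between the experiments 10 and 2 of 24 (14.3% and 15.7%). This exclusion was chosen after seeing the data. Depth limits OASL, IFI27, IFI44L and, with sgCtrl and sgERG, IFITM3.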
